A study of Mus musculus with 11 samples.

Results

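The accessibility of 9 imprinted gene clusters was examined in ATAC-seq counts of mouse embryonic stem cells. The clusters hold H19 and Igf2, Kcnq1ot1, Peg3, Snrpn, Mest, Peg10, Airn, Nnat and Plagl1. Every region of the deposited table that started inside a set window around one of these loci was taken, which gave 81 of 248336 regions. The Airn window held 31 of them, Plagl1 13, H19-Igf2 11 and Nnat 6. Peg3 and Snrpn held 5 each, Kcnq1ot1 and Peg10 4 each, and Mest 2. All 81 passed the filter on low counts. Of these, 11 regions were taken as control regions. At 8 loci they are the regions within 1000 bp of the start of the imprinted transcript with the most CpG around it, and at H19 the region 2000 to 4000 bp upstream of its start.

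The libraries came from 4 cell lines. B6 is the C57BL/6J line B6 5-1, and D2 is the DBA/2J line D2 5-5. B6-13D2 is line QJ 6-1 of the congenic strain B6.D2-(rs30079041-rs51756099)/Bakr, which carries a D2 interval of chromosome 13 on the B6 background. D2-13B6 is line XE 2-4, which carries a B6 interval of chromosome 13 on the D2 background. The series text names its strain D2.B6-(rs29224292-rs51756099)/Bakr, while the sample labels write D2.B6-(rs29224292-rs13469455)/Bakr, so that the end of its interval is not settled by the labels. All lines grew in serum medium with LIF, the MEK inhibitor PD0325901 and the GSK3 inhibitor CHIR99021. There were 3 libraries of B6, 3 of D2, 3 of D2-13B6 and 2 of B6-13D2, labelled as technical replicates of 1 line per genotype. A p-value here thus reflects only how libraries of the same line vary. In the main fit the 4 lines share 1 estimate of that spread per region, and each contrast sets single lines against one another. No window lies on chromosome 13, so any effect of the interval on these loci would be in trans. With 1 line per genotype, the comparisons within a background cannot tell such an effect from other differences between the lines. Total counts per library ran from 15198496 to 43042955, and every D2 and D2-13B6 library was deeper than every B6 and B6-13D2 library. The counts merge both parental copies, and in these bulk libraries fewer cells with an open copy and less opening per cell cannot be told apart.

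Imprinted genes are expressed mainly from a single parental copy. The choice is set by control regions whose DNA methylation is laid down in the egg or the sperm and kept after fertilisation by the zinc finger protein ZFP57, its relative ZFP445 and their cofactor TRIM28 on the methylated copy. Most such regions are promoters methylated on the maternal copy, while the control region of H19 lies between genes, is methylated on the paternal copy and binds the insulator protein CTCF on the other.

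The control region of H19 (GRCm38, chr7:142580023-142582212, intergenic) held 4 matches to the CTCF core motif CCGCNNGGNGGCAG, searched on both strands. They are shown because this arrangement sets the region apart by sequence. All 4 lie on the minus strand, the strand of H19, and capitals mark the match. The sites lie 2172, 2627, 3653 and 3897 bp upstream of the H19 start, in the order printed, at chr7:142580301-142580330, chr7:142580756-142580785, chr7:142581782-142581811 and chr7:142582026-142582055.
H19 site 1: agacgatgCCGCGTGGTGGCAGtacaatac
H19 site 2: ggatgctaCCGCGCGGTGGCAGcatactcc
H19 site 3: cagggttgCCGCACGGCGGCAGtgaagtct
H19 site 4: gggagttgCCGCGTGGTGGCAGcaaaatcg

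Of the 5554 regions within 10% of its width, 0.432% held any match, and H19's was the only 1 with 4 or more. Of all 248336 regions 228 (0.0918%) held a match, and none of the other 80 imprinted-locus regions did. Only exact matches to this pattern were counted, so a region without a match may still hold a CTCF site. The shares describe the pattern and not where CTCF binds.

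ZFP57 is known to bind the methylated hexamer TGCCGC. Counted on both strands (as TGCCGC or GCGGCA), it occurred in 10 of the 11 control regions, in 8 of the 70 other regions of the windows and in 12.1% of all regions. The control regions were wider, with a median of 2338 bp against 548 bp, and had a median CpG observed-to-expected ratio of 0.497 against 0.221. Counts are set against regions within 10% of the same width, which were not matched for CpG content. The hexamer itself holds a CpG, so the shares that follow do not allow for the higher ratio. The 12 copies at Mest were reached by 0.187% of such regions and the 10 at Snrpn by 0.157%, while the 3 at Kcnq1ot1 were reached by 11.1% and the 3 at Peg10 by 16.3%. The region upstream of the Snrpn start held none and had a CpG ratio of 0.169, and it counts as a control region by its distance alone. Motifs, CpG ratios and stretches were all read from the reference genome and not from the lines themselves. Whether each line carries the same sequence was not tested. Among stretches of 120 bases outside exons of protein-coding genes, the densest in hexamers follow for 4 control regions that differed between lines. Each is printed in the direction of its transcript. They lie downstream of the start, by 842 bp at Kcnq1ot1 (chr7:143295648-143295767, minus strand, in the unspliced transcript) and 303 bp at Peg3 (chr7:6730057-6730176, minus strand, intron). The distance is 639 bp at Snrpn (chr7:60004413-60004532, minus strand, intron) and 380 bp at Airn (chr17:12741719-12741838, plus strand, in an intron of Igf2r). Capitals mark the hexamers.
Kcnq1ot1 stretch: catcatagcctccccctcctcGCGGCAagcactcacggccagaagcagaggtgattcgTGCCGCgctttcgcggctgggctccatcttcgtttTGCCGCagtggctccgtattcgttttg
Peg3 stretch: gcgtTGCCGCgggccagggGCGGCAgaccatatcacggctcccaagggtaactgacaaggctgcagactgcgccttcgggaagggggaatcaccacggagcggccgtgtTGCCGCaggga
Snrpn stretch: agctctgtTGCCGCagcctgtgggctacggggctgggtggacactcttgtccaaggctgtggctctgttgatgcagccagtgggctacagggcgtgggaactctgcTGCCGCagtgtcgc
Airn stretch: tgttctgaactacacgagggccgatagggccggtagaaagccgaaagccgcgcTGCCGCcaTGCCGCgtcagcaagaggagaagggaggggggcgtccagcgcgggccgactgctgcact

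Levels are given as normalised CPM, which are counts scaled to a common library total with TMM factors, and per kb of region where loci are compared. In B6 the Peg3 control region was the most accessible, at 10.9 ± 0.991 normalised CPM per kb (SD, n = 3), followed by Kcnq1ot1 at 7.43 ± 0.353. The next 8 lay between 5.19 at the Snrpn start and 3.53 at Airn, and neighbours in that order differed by less than the larger of their SDs, except Mest (4.30 ± 0.317) and the Nnat start (3.65 ± 0.530). The region upstream of the Snrpn start was lowest, at 1.71. Peg3 was also the highest in the other 3 lines, with means of 13.8, 23.5 and 27.0 for B6-13D2, D2-13B6 and D2. Summed over the 11 control regions, the level was 149.2 to 160.7 normalised CPM in B6 libraries and 188.8 to 191.1 in B6-13D2 libraries. It was 278.8 to 333.5 in D2 and 233.7 to 336.1 in D2-13B6.

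**Figure D1:**
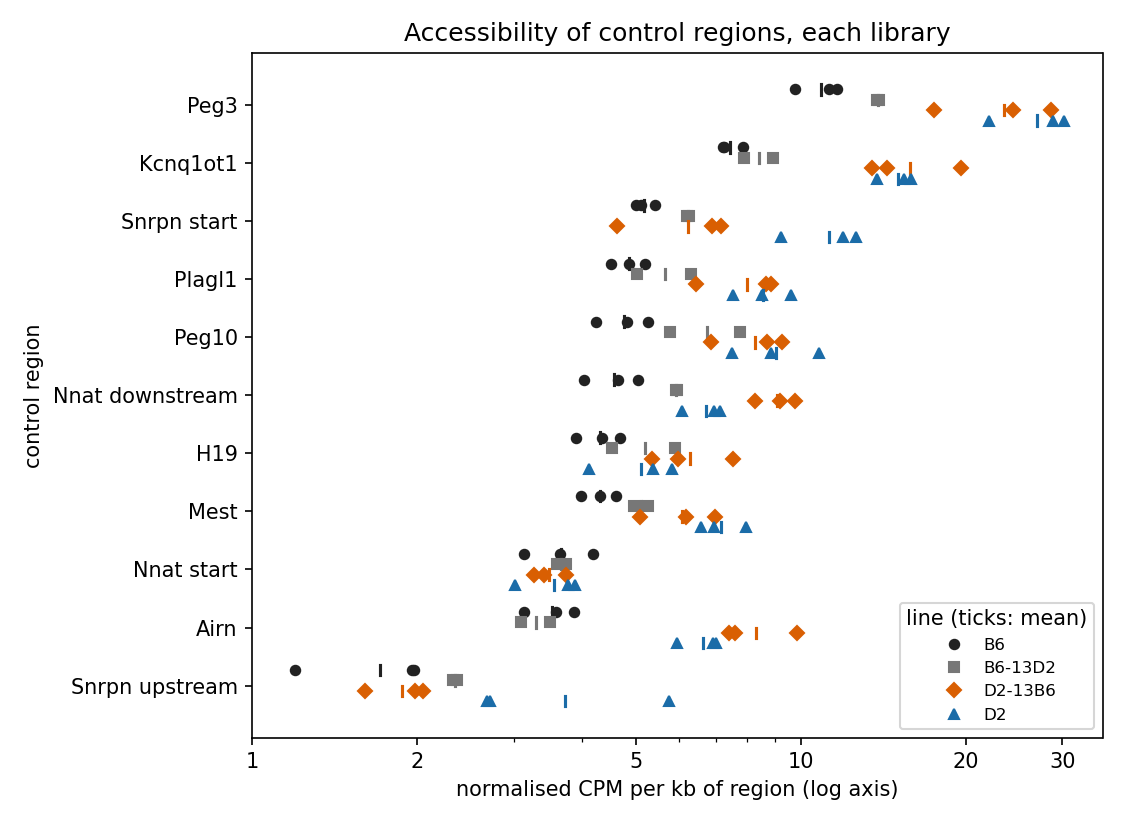
Normalised CPM per kb of region (log axis) at the 11 control regions, ordered by their B6 mean. Each point is a library, bars mark the mean of a line, and the D2 and D2-13B6 libraries lie to the right of the B6 libraries at Peg3, Kcnq1ot1 and Airn but not at the Nnat start.

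The strain comparison, D2 against B6, showed higher accessibility at most imprinted control regions in D2. Of the 11, 9 were higher, 0 were lower, and the H19 control region and the Nnat start did not pass the test (adjusted p under 0.05, edgeR's quasi-likelihood test over all regions). Over all 81 regions of the windows 20 were higher and 6 lower, 26 in all, against a background of 22.5% of all regions called in either direction and 13.7% called higher and 8.8% lower. The median log2 fold change was 0.91 over the control regions, 0.03 over the other 70 regions and -0.01 over all regions tested. The number of control regions called higher was also 9 with total counts, with RLE size factors and with DESeq2. With total counts, 19 of the 81 were higher and 11 lower. With TMM factors taken from CpG-rich start-site regions alone, 9 were higher and 21 lower, 5 of the control regions were higher, and the median of all regions moved to -0.50.

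That last scaling was added after the data were seen, because CpG-rich starts as a class were higher in the D2-background lines. Of the 7847 tested regions at an annotated start with an observed-to-expected ratio over 0.6 and GC over 50%, 58.6% were higher in D2 than in B6, with a median log2 fold change of 0.51. In D2-13B6 against B6, 73.9% were higher, with a median of 0.74. The control regions at Kcnq1ot1, Mest, Peg10, Plagl1 and the Nnat start belong to this class. The share of a library's counts in the class was 14.0% to 15.0% in B6, 14.3% to 14.7% in B6-13D2, 17.6% to 19.7% in D2 and 17.0% to 20.7% in D2-13B6. A higher level at a control region and a higher level of CpG-rich starts in general moved together, and the part of the second in the first was not tested. The regions that stayed higher in D2 under the class scaling were Peg3 (log2 fold change 0.80), the Snrpn start (0.61), Kcnq1ot1 (0.52), Peg10 (0.42) and Airn (0.41).

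Kcnq1ot1 is the long noncoding RNA that silences its neighbours on the paternal chromosome, and its start lies in an intron of Kcnq1. Its control region (chr7:143295039-143297376) held 18.3, 17.0 and 16.9 normalised CPM in the B6 libraries and 18.5 and 20.8 in B6-13D2. The D2-13B6 libraries held 33.6, 45.8 and 31.5 and the D2 libraries 37.1, 36.1 and 32.3. No library of a D2-background line overlapped a library of a B6-background line. The log2 fold change was 1.02 (SE 0.17, adjusted p = 3.91e-06) for D2 against B6 and 0.84 (SE 0.19, adjusted p = 0.00077) for D2 against B6-13D2, and the latter call was lost without B6-13D2 replicate 1 (0.76, adjusted p = 0.0558).

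Airn is the long noncoding RNA antisense to Igf2r, the receptor that clears insulin-like growth factor 2, and it silences Igf2r on the paternal copy. At its control region (chr17:12739644-12743164) the B6 libraries held 12.6, 11.04 and 13.6 normalised CPM and the B6-13D2 libraries 10.9 and 12.3. The D2-13B6 libraries held 26.1, 34.7 and 26.8 and the D2 libraries 24.7, 24.4 and 20.9. Again the libraries of both backgrounds did not overlap. D2 exceeded B6 by 0.91 on the log2 scale (SE 0.17, adjusted p = 2.97e-05) and D2-13B6 exceeded B6 by 1.23 (SE 0.17, adjusted p = 7.24e-09).

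Peg3 encodes a zinc finger protein, is expressed from the paternal copy and shares its control region with Usp29. At the region (chr7:6726758-6731328) the B6 libraries held 51.5, 44.6 and 53.2 normalised CPM and the B6-13D2 libraries 63.0 and 63.6. The D2-13B6 libraries held 111.3, 130.7 and 80.0 and the D2 libraries 131.7, 100.8 and 138.2. This was the member with the smallest p in D2 against B6, with a log2 fold change of 1.31 (SE 0.18, adjusted p = 4.84e-08), and the ranges of the backgrounds did not overlap.

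The Snrpn control region is the imprinting centre of the Prader-Willi and Angelman cluster. At the start (chr7:60002550-60005461) the B6 libraries held 15.8, 14.9 and 14.6 normalised CPM and the B6-13D2 libraries 18.1 and 18.2. The D2-13B6 libraries held 20.1, 20.9 and 13.5 and the D2 libraries 34.8, 26.8 and 36.8. Here the D2 libraries stood above those of all other lines, and the D2-13B6 libraries overlapped both B6-background lines. D2 exceeded B6 by 1.12 on the log2 scale (SE 0.17, adjusted p = 8.48e-07) and D2-13B6 by 0.85 (SE 0.17, adjusted p = 6.02e-05). D2-13B6 against B6 was 0.26 (SE 0.17, adjusted p = 0.225), and without D2-13B6 replicate 3, the lowest library, 0.44 (adjusted p = 0.00906). The adjacent region 868 bp upstream of the start (chr7:60005979-60007477) held 1.80 to 2.96 in B6, 3.49 and 3.55 in B6-13D2, 2.41 to 3.06 in D2-13B6 and 4.07, 4.02 and 8.62 in D2. Its difference between D2 and D2-13B6 was 0.98 (SE 0.22, adjusted p = 0.000361) and rested on D2 replicate 3, since without that library it was 0.52 (adjusted p = 0.104).

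Mest, Peg10 and Plagl1 are paternally expressed genes that act in growth and the placenta. At the Mest control region (chr6:30736140-30740002) the B6 libraries held 15.4 to 17.8 normalised CPM, B6-13D2 19.2 and 20.3, D2-13B6 19.7 to 27.0 and D2 25.4 to 30.7. At Peg10 (chr6:4746542-4749670), whose promoter is shared with Sgce, they held 13.2 to 16.5, 18.1 and 24.2, 21.5 to 28.9, and 23.5 to 33.8. At the imprinted Plagl1 start (chr10:13089898-13091714) they held 8.19 to 9.45, 9.14 and 11.5, 11.7 to 16.0, and 13.7 to 17.5. D2 libraries exceeded B6 libraries without overlap at each of these, and B6-13D2 libraries overlapped those of a D2-background line at Mest and Peg10. The log2 fold changes of D2 against B6 were 0.73 at Mest (SE 0.17, adjusted p = 0.000535), 0.92 at Peg10 (SE 0.17, adjusted p = 3.81e-05) and 0.81 at Plagl1 (SE 0.17, adjusted p = 2.00e-04). The calls at Mest and Plagl1 were lost under the scaling on CpG-rich starts, at 0.23 and 0.31.

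Nnat, a membrane proteolipid gene inside Blcap, and H19 differed from these. At the Nnat start (chr2:157559271-157560697) the levels were 4.46 to 5.98 normalised CPM in B6, 5.13 and 5.32 in B6-13D2, 4.67 to 5.33 in D2-13B6 and 4.30 to 5.52 in D2. The log2 fold change of D2 against B6 was -0.03, with a 95% interval of -0.39 to 0.33. The region just downstream in the gene body (chr2:157560981-157561981) held 4.03 to 5.06 in B6 and 6.07 to 7.13 in D2, a difference of 0.56 (SE 0.18, adjusted p = 0.0159). That call was lost without B6 replicate 1 (0.58, adjusted p = 0.0545), B6 replicate 3 (0.47, adjusted p = 0.112) or D2 replicate 1 (0.51, adjusted p = 0.0738), and with the scaling on CpG-rich starts (0.06).

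The H19 control region held 8.52, 10.3 and 9.50 normalised CPM in B6 and 9.91 and 12.9 in B6-13D2. It held 11.7, 16.5 and 13.1 in D2-13B6 and 12.8, 11.8 and 9.02 in D2. The D2 libraries overlapped those of all other lines, and D2 against B6 was 0.26 (95% interval -0.09 to 0.60). D2-13B6 exceeded B6 by 0.55 (SE 0.17, adjusted p = 0.00766), a call that was lost without B6 replicate 1 (0.48, adjusted p = 0.0625) and with total counts (0.25, adjusted p = 0.138).

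B6-13D2, which carries the D2 interval of chromosome 13 on the B6 background, differed from B6 at none of these regions by the test. In B6-13D2 against B6, 0 of 81 regions were called, against a background of 0.474% of all regions. At an unadjusted p under 0.05 there were 6, DESeq2 called 0, and the smallest adjusted p was 0.230, at a 256 bp region in an Airn intron. The estimate was above 0 at 10 of the 11 control regions, with a median of 0.26 against -0.01 over all regions. The 95% interval ran from -0.20 to 0.55 at Kcnq1ot1, from -0.49 to 0.28 at Airn, from -0.04 to 0.73 at Peg3 and from 0.12 to 0.88 at Peg10. The estimates at Peg10 (0.50) and Peg3 (0.34) were called when only the libraries of B6 and B6-13D2 were fitted, with adjusted p of 0.00358 and 0.0139. At those regions the B6-13D2 libraries lay above every B6 library, with 24.2 and 18.1 against at most 16.5 at Peg10.

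The corresponding comparison on the D2 background was D2 against D2-13B6, again with the D2 interval first, although the labels name different markers for both congenic intervals, which may not match in extent. Among the 81 regions 11 were higher and 16 lower, 27 in all, against a background of 23.7% (8.53% higher and 15.2% lower). Of the control regions 2 were higher, both at Snrpn, and 0 were lower. The region downstream of the Nnat start, at -0.43 (adjusted p = 0.0508), was called lower with RLE size factors (-0.50), with DESeq2 (-0.51) and without D2-13B6 replicate 3 (-0.49), and Airn without that same library (-0.38, adjusted p = 0.0352). Kcnq1ot1 differed by -0.07 (95% interval -0.39 to 0.25), Peg3 by 0.20 (-0.14 to 0.55) and Plagl1 by 0.10 (-0.23 to 0.42). With total counts, and with the scaling on CpG-rich starts, Mest and Peg3 were also called higher in D2, at 0.41 and 0.39 with total counts. The split over the 81 regions turned, to 21 higher and 13 lower with total counts and 16 and 12 with the scaling on CpG-rich starts, where the median of all regions was 0.21 in both.

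D2-13B6 against B6 compared the backgrounds with the B6 interval in both. It gave 25 regions higher and 19 lower, 44 in all, against a background of 41.7% (21.6% higher and 20.1% lower). Of the control regions 8 (72.7%) were higher and 0 lower, with a median of 0.72 against -0.13 over all regions. This was close to the CpG-rich regions at a start, of which 73.9% were higher, with a median of 0.74. With total counts 6 control regions were higher, and 19 regions in all were higher and 25 lower. With the scaling on CpG-rich starts 3 control regions were higher and 2 lower, and 14 regions in all were higher and 38 lower, with the all-region median at -0.80. With RLE size factors the 81 regions split into 26 higher and 13 lower, and with DESeq2 into 25 and 12. Under the scaling on CpG-rich starts the estimates at Mest, the Snrpn start and the H19 control region turned below 0, at -0.19, -0.44 and -0.13. The Mest call was also lost with total counts (0.19) and without B6 replicate 2 (0.45, adjusted p = 0.0664). D2 against B6-13D2, with the D2 interval in both, gave 15 higher and 7 lower, against 18.8% of all regions (11.6% higher and 7.24% lower), and 8 higher and 21 lower with the scaling on CpG-rich starts. Among CpG-rich regions at a start 47.6% were higher in D2, with a median of 0.51, against 45.5% and 0.59 for the control regions. Of the control regions 5 were higher and 0 lower, and 3 to 8 were higher when a library was left out. The count of 22 fell to 13 without B6-13D2 replicate 1 and to 11 without replicate 2, which left that line with 1 library, assumed to vary like the others. The call at Plagl1 (0.59) was lost without B6-13D2 replicate 1 (0.44), B6-13D2 replicate 2 (0.77) or D2 replicate 1 (0.50). These comparisons share libraries with D2 against B6, so their values are given side by side and not as repeats of each other.

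**Figure D2:**
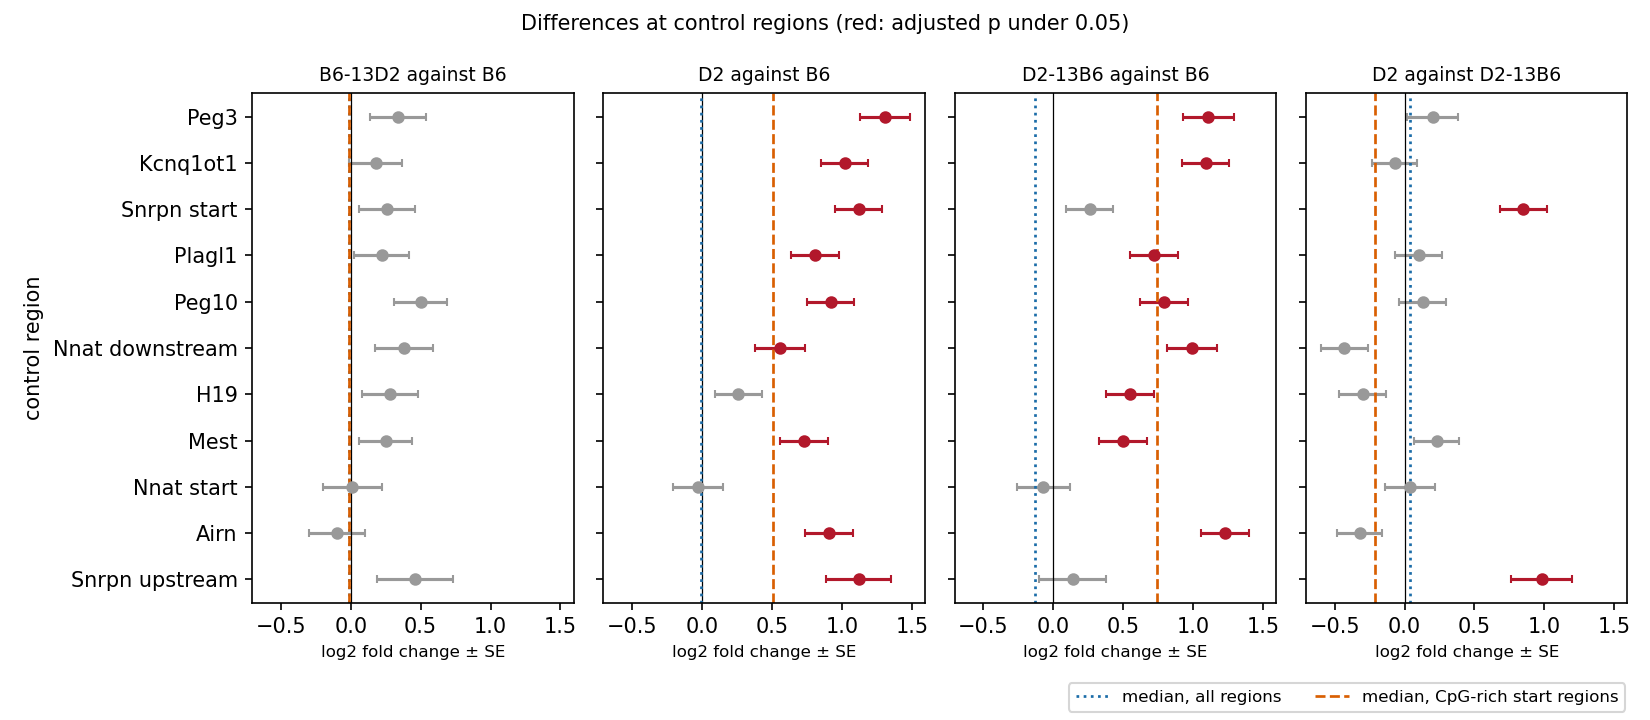
Log2 fold change ± SE at the 11 control regions in 4 comparisons, with red points for an adjusted p under 0.05. The dotted line is the median of all regions and the dashed line that of CpG-rich regions at a start; 9 points are red in D2 against B6, 0 in B6-13D2 against B6, 8 in D2-13B6 against B6 and 2 in D2 against D2-13B6.

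Outside the control regions, the introns of Airn and Igf2r held the members with the smallest p in D2-13B6 against B6. Of the 31 regions of the Airn window, 15 were higher and 4 lower in D2-13B6 than in B6, and D2 against D2-13B6 gave 0 higher and 12 lower. In D2 against B6, 9 were higher and 1 was lower. The shares of all chromosome 17 regions called in these 3 comparisons were 42.5%, 22.2% and 24.1%. The 3 members described first all lie in introns of Airn, and 1 of them lies in an Igf2r intron as well.

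At the region in the shared intron (chr17:12754280-12754994) the B6 libraries held 4.49, 3.29 and 5.43 normalised CPM and the B6-13D2 libraries 2.82 and 4.34. The D2-13B6 libraries held 18.8, 30.3 and 18.0 and the D2 libraries 9.99, 9.93 and 8.42. The lines fell into 3 levels without overlap, with both B6-background lines lowest, D2 between and D2-13B6 highest. D2-13B6 exceeded B6 by 2.33 on the log2 scale (SE 0.20, adjusted p = 3.79e-16), and D2 was below D2-13B6 by a log2 fold change of -1.24 (SE 0.18, adjusted p = 1.68e-07).

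The same order held at chr17:12782937-12783600, an Airn intron beyond the Igf2r start. There B6 held 3.03, 4.51 and 4.42 normalised CPM, B6-13D2 3.37 and 4.09, D2-13B6 18.1, 26.6 and 14.8, and D2 7.73, 9.24 and 8.37. D2-13B6 against B6 was 2.33 (SE 0.20, adjusted p = 2.94e-16). At chr17:12781155-12781478, also an Airn intron, D2-13B6 held 9.30, 12.7 and 7.22, D2 3.58, 4.12 and 3.61, and the 5 B6-background libraries 1.14 to 2.15. This was the member with the largest log2 fold change of D2-13B6 against B6, 2.50 (SE 0.22, adjusted p = 1.37e-15).

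The neighbour at chr17:12755100-12755588 held 1.89 to 2.96 normalised CPM in B6, 3.05 and 3.44 in B6-13D2, 7.74 to 12.4 in D2-13B6 and 4.38 to 5.36 in D2. Its log2 fold change was 1.93 for D2-13B6 against B6 (SE 0.20, adjusted p = 1.04e-12) and 0.94 for D2 against B6 (SE 0.21, adjusted p = 0.000334), the latter not called with the scaling on CpG-rich starts (0.46). The 256 bp region at chr17:12804603-12804858 was the lowest of the named intron regions in B6-13D2, at 0.546 and 0.598 against 0.919 to 1.53 in B6. That difference, -1.18 (SE 0.38, adjusted p = 0.230), did not pass the test, while D2 exceeded B6-13D2 by 1.83 (SE 0.35, adjusted p = 6.56e-05).

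The Igf2r promoter (chr17:12768672-12770542), which lies between these introns, did not share their pattern of levels. It held 8.42 to 10.6 normalised CPM in B6, 8.05 and 8.92 in B6-13D2, 10.5 to 14.9 in D2-13B6 and 14.3 to 15.1 in D2. D2 exceeded B6 by 0.68 (SE 0.17, adjusted p = 0.00159), a call lost with the scaling on CpG-rich starts (0.19), and D2 against D2-13B6 was 0.21 (95% interval -0.11 to 0.54).

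**Figure D3:**
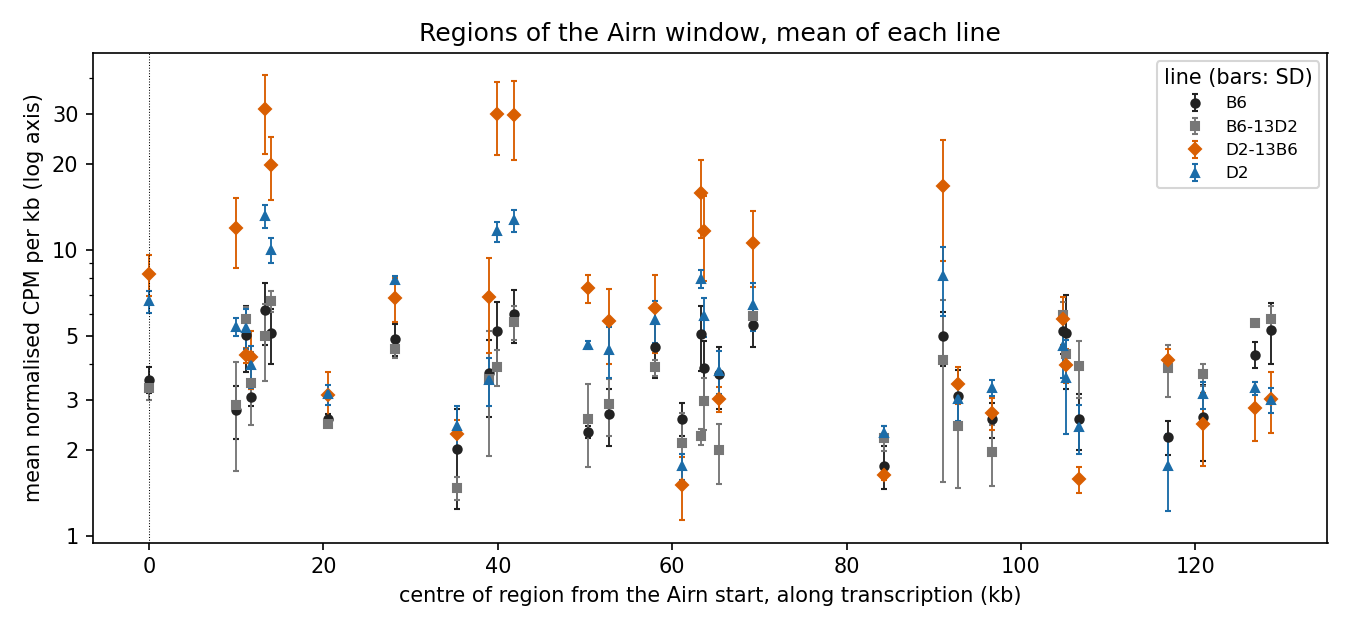
Mean normalised CPM per kb of region (log axis, error bars SD) of each line at the 31 regions of the Airn window, by distance from the Airn start along transcription. D2-13B6 means stand above those of the other lines at the intron regions described, with a log2 fold change over B6 of up to 2.50.

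Near Nnat, the intergenic region chr2:157552427-157552923 had the smallest p of all members in D2 against D2-13B6. It held 2.30, 3.48 and 2.89 normalised CPM in B6, 2.18 and 2.39 in B6-13D2, 10.7, 14.4 and 10.7 in D2-13B6, and 4.59, 5.92 and 3.98 in D2. D2-13B6 stood above D2, and D2 above both B6-background lines, without overlap. D2 against D2-13B6 was -1.30 (SE 0.18, adjusted p = 7.33e-08) and D2-13B6 against B6 was 2.07 (SE 0.20, adjusted p = 4.26e-14). The promoter of Blcap (chr2:157565479-157568132), whose introns hold Nnat, was likewise highest in D2-13B6, at 36.5 to 52.2, against 24.8 to 32.6 in D2, 21.1 to 22.8 in B6 and 19.2 and 19.6 in B6-13D2. Its log2 fold change was 0.95 for D2-13B6 against B6 (SE 0.17, adjusted p = 3.21e-06).

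The Plagl1 window went the other way outside its control region. Plagl1 encodes a zinc finger transcription factor that restrains the cell cycle. Of its 13 regions, 1 was higher, the control region, and 7 were lower in D2-13B6 than in B6, and D2 against D2-13B6 gave 4 higher and 1 lower. Of all chromosome 10 regions, 40.8% and 23.5% were called in these comparisons, and of all regions 1000 to 2000 bp wide 34.1% were lower in D2-13B6 than in B6. The widest, of 3576 bp (chr10:13106023-13109598, within Plagl1), held 22.9 to 23.3 normalised CPM in B6, 21.4 and 21.7 in B6-13D2, 9.29 to 11.4 in D2-13B6 and 16.8 to 19.7 in D2. D2-13B6 against B6 was -1.15 (SE 0.17, adjusted p = 2.47e-08). At the control region the same comparison gave 0.72, and 0.02 with the scaling on CpG-rich starts.

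**Figure D4:**
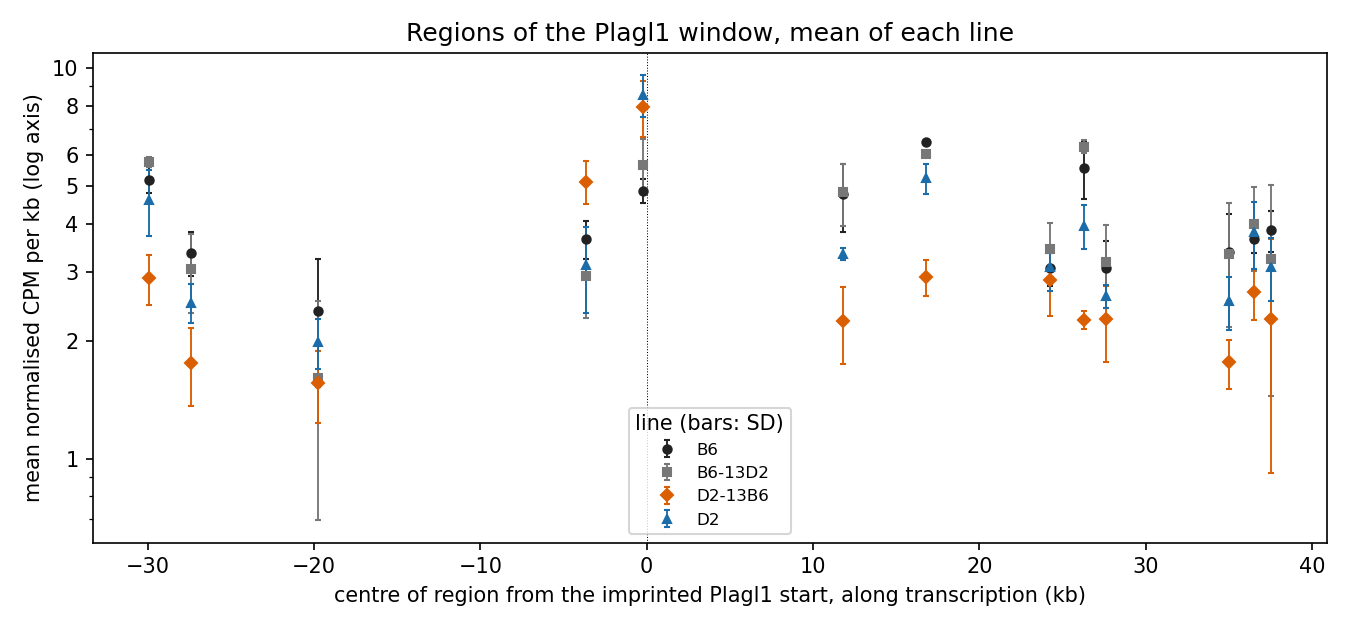
Mean normalised CPM per kb of region (log axis, error bars SD) of each line at the 13 regions of the Plagl1 window, by distance from the imprinted Plagl1 start. At the start D2-13B6 lies above B6, with 11.7 to 16.0 against 8.19 to 9.45 normalised CPM, and 7 other regions were called lower in D2-13B6 than in B6.

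Marker genes moved with D2-13B6 as well. All 9 embryonic stem cell markers had a promoter region in every library, and no marker of any list was at 0 in a library. The summed promoter level of the 9 was 355.4 to 375.8 normalised CPM in B6, 343.4 to 366.2 in B6-13D2, 340.1 to 375.1 in D2 and 273.0 to 334.6 in D2-13B6, where 6 were lower and 2 higher than in B6. The 5 fibroblast markers summed to 115.7 to 157.6 in D2-13B6, 78.3 to 88.3 in D2, 69.7 to 75.5 in B6 and 61.0 to 70.3 in B6-13D2. All 5 were lower in D2 than in D2-13B6, and 4 were higher in D2-13B6 than in B6, or 2 with the scaling on CpG-rich starts. Of all regions at an annotated start, 48.0% were higher and 15.0% lower in D2-13B6 than in B6, and 16.3% were lower in D2 against D2-13B6. The part of these shifts in the Airn, Nnat and Plagl1 values of D2-13B6 was not tested.

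At H19 and Igf2, promoters were compared with the control region. The H19 start (chr7:142577991-142578565) held 2.44 to 3.68 normalised CPM in B6, 2.34 and 2.68 in B6-13D2, 4.21 to 4.85 in D2-13B6 and 3.32 to 3.91 in D2. Its log2 fold change was 0.27 for D2 against B6 (95% interval -0.13 to 0.67) and 0.55 for D2-13B6 against B6 (SE 0.20, adjusted p = 0.024). The latter call was lost with total counts (0.26) and without B6 replicate 1, B6 replicate 2 or D2-13B6 replicate 3, at 0.43 to 0.54, and the estimate was -0.10 with the scaling on CpG-rich starts. Igf2, the growth factor gene that H19's control region insulates on the maternal copy, had 3 regions near its starts. The main one (chr7:142658694-142661145) held 12.3 to 14.8 in B6, 12.3 and 12.7 in B6-13D2, 12.6 to 15.0 in D2-13B6 and 12.7 to 15.2 in D2. Its log2 fold change was 0.03 for D2 against B6 (95% interval -0.29 to 0.35) and 0.02 for D2-13B6 against B6, but -0.47 and -0.65, both called, with the scaling on CpG-rich starts. The region at chr7:142655537-142656553 held 5.12 to 5.82 in B6, 4.00 and 3.29 in B6-13D2, 3.65 to 4.10 in D2-13B6 and 3.97 to 4.30 in D2, so that every B6 library stood above those of the other lines. D2-13B6 against B6 was -0.49 (SE 0.19, adjusted p = 0.0293). D2 against B6 was not called, but was with total counts (-0.56), when only both lines were fitted (-0.43) and with the scaling on CpG-rich starts (-0.92). The call in D2-13B6 against B6 was lost with RLE size factors, with DESeq2, when only both lines were fitted and without B6 replicate 1, B6 replicate 3 or D2-13B6 replicate 3, at -0.42 to -0.48. The region at chr7:142667631-142668214 passed the test in none of the 6 comparisons, with D2 against B6 at 0.03 (95% interval -0.43 to 0.50). D2 against D2-13B6 was called there without D2-13B6 replicate 3 (0.64, adjusted p = 0.0455), and D2-13B6 against B6 with the scaling on CpG-rich starts (-0.92).

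The interaction asked whether the congenic contrasts on the B6 and D2 backgrounds differed, and was computed as B6-13D2 minus B6, less D2 minus D2-13B6. It was called at 8 of 81 regions, 7 above 0 and 1 below, against a background of 6.54% (4.55% above and 1.99% below). Of these, 5 lie in the Airn window, 2 in the Nnat window and 1 in the Plagl1 window, and 1 of the 8 is a control region, that downstream of the Nnat start (0.81, SE 0.27, adjusted p = 0.049). That last call was lost in 10 of the 11 fits that left out a library, at 0.73 to 0.88, and held without D2-13B6 replicate 3. With total counts 3 regions were above 0 and 4 below, and with the scaling on CpG-rich starts 1 was above and 2 below. At Snrpn the interaction was -0.59 (SE 0.26, adjusted p = 0.168), and it was called with total counts (-0.78, adjusted p = 0.00561), with the scaling on CpG-rich starts (-0.79) and without D2 replicate 2 (-0.77). It was at Peg3 0.14 (95% interval -0.38 to 0.66) and at Kcnq1ot1 0.25 (-0.25 to 0.74). The count fell to 5 without B6 replicate 2, B6 replicate 3, B6-13D2 replicate 1 or D2 replicate 1, to 4 without D2 replicate 3 or D2-13B6 replicate 2, to 3 without B6 replicate 1 and to 0 without B6-13D2 replicate 2.

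**Figure D5:**
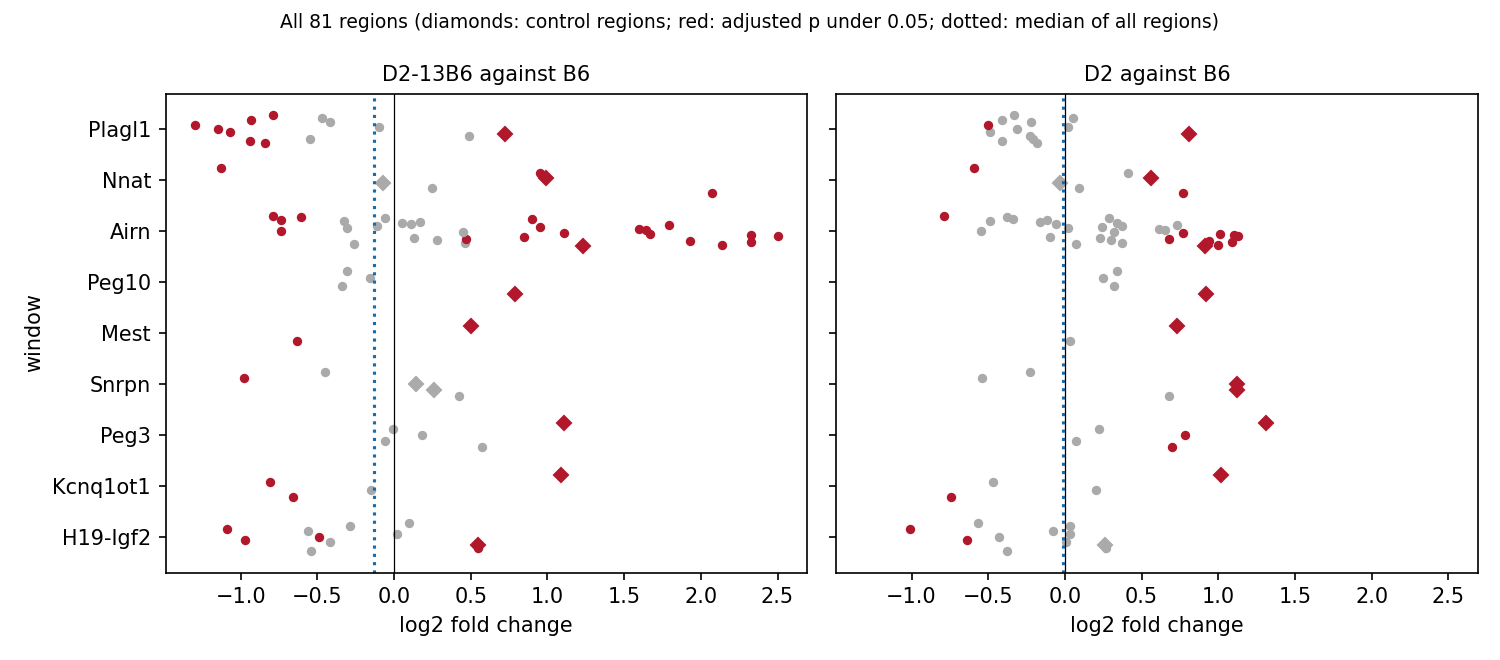
Log2 fold change of each of the 81 regions by locus in 2 comparisons, D2 against B6 and D2-13B6 against B6, with control regions marked apart from the others. The control regions reach 1.31 in the first, at Peg3, and the Airn introns reach 2.50 in the second.

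Other imprinted genes were read at the most accessible region within 1000 bp of a start. Of 33 genes, 31 had such a region, and those of Igf2r, Usp29, Sgce and Blcap are among the 81. The regions of Usp29 and Sgce are the Peg3 and Peg10 control regions themselves. All of these enter the counts that follow, and Igf2r, Usp29 and Sgce are among those higher in D2 than in B6. In D2 against B6, 15 were higher and 1 was lower, 51.6% of the list, with a median of 0.43. Of all regions at an annotated start 37.9% were called (32.8% higher), with a median of 0.28, and of the CpG-rich ones 59.7% were called, so that the list lay between both. The median was 0.04 in B6-13D2 against B6. In D2-13B6 against B6, 17 were higher and 4 lower, 67.7% against 63.0% of all regions at a start, with a median of 0.47. The scaling on CpG-rich starts gave 8 higher and 10 lower in D2 against B6 and 6 and 15 in D2-13B6 against B6. Among those higher in D2 were Meg3, the noncoding RNA opposite Dlk1 (7.07 ± 1.16 normalised CPM in B6 and 15.5 ± 3.71 in D2, SD, n = 3, log2 fold change 1.12), Peg13 (1.02), Nap1l5 (1.05) and Ube3a (0.92), the ubiquitin ligase gene of the Snrpn cluster. Slc22a18, a transporter gene of the Kcnq1ot1 cluster, was the one lower (-0.62, SE 0.19, adjusted p = 0.0129), a call lost without B6 replicate 1 (-0.57) or D2 replicate 1 (-0.53).

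Promoters of proteins that bind or keep imprints, or that lay down or remove DNA methylation, were read in the same way. All 16 had a region. In D2 against B6, 6 were higher and 0 lower, with a median of 0.41, and in D2-13B6 against B6, 9 were higher and 2 lower. These shares of 37.5% and 68.8% were close to the 37.9% and 63.0% of all regions at an annotated start. The count in D2 against B6 fell to 1 without B6 replicate 2, to 2 without D2 replicate 1 and to 3 without B6 replicate 1 or D2 replicate 3. That in D2-13B6 against B6 fell from 11 to 7 without B6 replicate 2 and to 6 without D2-13B6 replicate 1. With the scaling on CpG-rich starts 0 were higher in either, and 6 and 8 were lower. Zfp57 stood at 14.2 ± 2.22 normalised CPM in B6 and 20.2 ± 2.01 in D2 (SD, n = 3, log2 fold change 0.50, SE 0.17, adjusted p = 0.0246). Ctcf (0.52) and the maintenance methyltransferase gene Dnmt1 (0.45) were also higher in D2. The call at Zfp57 was lost without B6 replicate 1, B6 replicate 2, D2 replicate 1 or D2 replicate 3, at 0.40 to 0.49. That at Ctcf was lost without B6 replicate 2, B6 replicate 3, D2 replicate 1 or D2 replicate 3, at 0.44 to 0.50. That at Dnmt1 was lost with RLE size factors and without any 1 library of B6 or B6-13D2, D2 replicate 1 or D2 replicate 3, at 0.42 to 0.49. Trim28 was -0.22 (SE 0.17, adjusted p = 0.392), and was called lower with total counts (-0.35, adjusted p = 0.00645) and with the scaling on CpG-rich starts (-0.72). Tet1, an enzyme gene that acts in removing DNA methylation, was lower in D2-13B6 than in B6 (-0.69, SE 0.16, adjusted p = 0.000316) and higher in D2 than in D2-13B6 (0.58, SE 0.16, adjusted p = 0.00498), the latter not called when only both lines were fitted (0.56, adjusted p = 0.0713). The median over the 16 was 0.07 in B6-13D2 against B6.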

How the data were processed

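The authors deposited a single table of whole-number counts per region for 11 ATAC-seq libraries, not normalized. Per the file headers, duplicate and mitochondrial reads had been removed. The submitters' processing notes name Trimmomatic 0.39, BWA 0.7.5, Picard 2.0.1, MACS 1.4.2, bedtools 2.9.2, edgeR 3.34.1 and build mm10, without their roles. Whether reads were shifted for the transposase offset is not given in the sources used here. The counts of all lines refer to the same regions of that build. Whether lines that differ from it in sequence lost reads at variants was not tested. Coordinates fit GRCm38, genes come from GENCODE M21 and sequence from RefSeq's GRCm38.p6.

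All 11 libraries were fitted in 1 model with edgeR 4.0.16 (R 4.3.3), using TMM, filterByExpr by group and the robust quasi-likelihood test, with a coefficient per line. Benjamini-Hochberg adjustment ran over the 246840 regions tested. Regions with an adjusted p under 0.05 are called, and 95% intervals are 1.96 SE either way. The test was checked on simulated data. A floor of 3 counts corresponds to 0.0778 to 0.183 normalised CPM and covers counting error only. Pairs of libraries of a line differed beyond sampling noise.

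The members and gene lists were chosen with earlier results of these data known. Described singly are the control regions, regions within 1000 bp of an H19 or Igf2 start and the 3 members with the smallest p in each comparison; list genes, the regions called in the interaction and upstream starts of Mest and Plagl1 were named after their values were seen. Alternatives were RLE size factors, total counts, no filter, DESeq2 1.42.0, a replicate block, fitting only the lines compared, leaving out each library, leaving out chromosomes 11 and 13, and the scaling on CpG-rich starts.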

Additional observations from a re-analysis of the deposited data

Results flagged for a closer look

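By the interaction test of edgeR over all regions, B6-13D2 against B6 and D2 against D2-13B6 differed from each other at 8 regions of the windows. Each genotype is 1 cell line, and both congenic intervals are labelled with different markers. Values are the interaction on the log2 scale, and an adjusted p close to 0.05 is given where it applies.

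In the Airn window the interaction was 0.92 at the Airn and Igf2r intron region starting at 12754280 (SE 0.30, adjusted p = 0.0488), and 1.33 at its neighbour starting at 12755100 (SE 0.31, adjusted p = 0.00477). It was 1.15 at the Airn intron region starting at 12782937 (SE 0.30, adjusted p = 0.0115) and 0.81 at the noncoding exon region starting at 12790439 (SE 0.26, adjusted p = 0.0491). At these regions B6-13D2 was not called different from B6, while D2 was called lower than D2-13B6. The largest interaction of the windows, 2.03 (SE 0.48, adjusted p = 0.00609), was at a Mas1 and Airn intron region of 371 bp starting at 12858084. It held 0.7004 to 0.915 normalised CPM in B6, 1.23 and 1.64 in B6-13D2, 1.403 to 1.67 in D2-13B6 and 0.467 to 0.857 in D2, so that both congenic lines lay above both parental strains without overlap. Without B6-13D2 replicate 2, each of these 5 calls was lost, at 0.44 to 1.81, and so was every other call of the interaction in the windows. The calls starting at 12754280 and 12790439 were lost when 6 and 8 of the 11 libraries were left out in turn. They were also lost with total counts (0.72 and 0.62), with a replicate block (0.82 and 0.76) and with the scaling on CpG-rich starts (0.72 and 0.63), and the first with DESeq2 (1.01, adjusted p = 0.0502). That starting at 12782937 was lost without B6 replicate 1 (0.97) and with the scaling on CpG-rich starts (0.92), and that at 12858084 with the same scaling (1.84).

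At Nnat the interaction was 0.99 (SE 0.31, adjusted p = 0.0409) at the intergenic region starting at 157552427 and 0.81 (SE 0.27, adjusted p = 0.049) at the control region downstream of the start. At the Plagl1 region starting at 13106023 it was -0.94 (SE 0.25, adjusted p = 0.0126), with D2 called higher than D2-13B6 by 0.84 and B6-13D2 against B6 at -0.10. The Plagl1 call was also lost without B6-13D2 replicate 1 (-0.93), and that at 157552427 without 7 of the 11 libraries in turn, at 0.83 to 1.06. The calls at 157552427 and downstream of the Nnat start were lost with total counts (0.81 and 0.64) and with the scaling on CpG-rich starts (0.78 and 0.62), and the latter with a replicate block (0.74).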

How the results depend on the processing

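With 1 library left out at a time, regions called numbered 20 to 31 in D2 against B6, 19 to 32 in D2 against D2-13B6, 35 to 44 in D2-13B6 against B6 and 11 to 31 in D2 against B6-13D2. They numbered 0 throughout in B6-13D2 against B6 and 0 to 11 in the interaction. When only the lines compared were fitted, B6-13D2 against B6 gave 2 calls. Same-numbered libraries did not deviate together (correlations of -0.0486 to 0.0683), so the replicate numbers do not pair them. A replicate block gave 28 calls in D2 against B6, 29 in D2 against D2-13B6, 43 in D2-13B6 against B6, 24 in D2 against B6-13D2, 0 in B6-13D2 against B6 and 5 in the interaction. The scaling on CpG-rich starts gave 3 calls in the interaction, and the cause was not tested. Of all calls in D2 against B6, 60.9% were higher, against 46.8% with total counts and 10.8% with that scaling. The shares were 35.9%, 57.4% and 54.4% in D2 against D2-13B6 (25.6% with DESeq2), 51.9%, 32.5% and 17.0% in D2-13B6 against B6, 61.6%, 48.9% and 12.6% in D2 against B6-13D2, and 69.5%, 38.9% and 33.5% in the interaction (80.5% with RLE size factors). For 246 single-region results, 4336 of 4626 recomputed values kept their side of the threshold with no called value reversed. Of these, 171 changed sign without being called in either. Another 191 lost the call, 87 gained it and 12 changed sign with a call in at least one of both. Those 12 all came with the scaling on CpG-rich starts, by its construction a downward shift of both D2-background lines. In D2 against B6 they were Igf2 (-0.47) and Dnmt1 (-0.05). In D2-13B6 against B6 they were Igf2 (-0.65), the Snrpn start (-0.44), Igf2r, Zfp57 and Dnmt1 (each -0.23), Mest (-0.19), the H19 control region (-0.13), Nap1l5 (-0.11), the H19 start (-0.10) and Ctcf (-0.00). Depth limits the smallest regions most, where a library held under 1 normalised CPM.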

Other observations

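At Mest and Plagl1 an upstream start lies outside the germline control region, and in D2-13B6 against B6 its log2 fold change was below 0 while that of the imprinted start was above 0, except that with the scaling on CpG-rich starts the Mest control region was also below 0 (-0.19) and the Plagl1 control region was 0.02. These starts were named after their values were seen. The upstream Mest region (chr6:30732457-30733788) held 5.87 to 8.90 normalised CPM in B6, 7.96 and 8.32 in B6-13D2, 4.34 to 4.82 in D2-13B6 and 6.25 to 8.33 in D2. D2-13B6 against B6 was -0.63 (SE 0.18) there and 0.50 at the Mest control region, and both passed the test, though neither did without B6 replicate 2 (-0.46 and 0.45), and the control region not with total counts (0.19). The upstream Plagl1 region (chr10:13060294-13061888) held 7.62 to 8.89 in B6, 9.01 and 9.37 in B6-13D2, 4.18 to 5.40 in D2-13B6 and 6.02 to 8.82 in D2. There D2-13B6 against B6 was -0.84 (SE 0.18), against 0.72 at the control region. The difference between a locus' starts was not itself tested.

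Summed promoter levels of the other marker lists were as follows. Primitive endoderm markers reached 87.1 to 92.2 normalised CPM in B6 and 80.6 to 97.1 in D2-13B6, and primitive streak markers 60.1 to 62.6 and 46.9 to 55.8. Trophoblast markers reached 92.1 to 99.4 in B6 and 73.1 to 105.6 in D2-13B6, and neural markers 74.0 to 75.0 and 50.01 to 60.7. In D2 these lists, in the same order, reached 82.17 to 96.71, 57.51 to 65.71, 86.99 to 100.2 and 57.75 to 73.35. The summed level of the neural markers was thus below B6 in D2 as well. Of the 4, only Olig2 was called lower in D2 than in B6 (log2 fold change -0.56). Pax6 was at -0.02, Neurod1 at -0.05 and Sox1 at 0.23. In B6-13D2 the lists reached 84.87 to 87.89, 58.8 to 60.45, 90.65 to 94.82 and 75.68 to 77.53.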
